A study of Mus musculus with 4 samples.

Results

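The regions described here were the long 5'UTRs of muscle mRNAs. They were every table row with a listed 5'UTR of at least 500 nt and a coding RNA level of at least 1 RPM. RPM is a reads-per-million value, on a scale set by the authors for each library. In heart 788 of 10796 rows met the rule, and in tibialis anterior 738 of 10356. By gene symbol there were 826 of 11237, of which 700 met the rule in both tissues, 88 in heart alone and 38 in tibialis anterior alone. A further 11 rows in heart and 36 in tibialis anterior had a 5'UTR of that length but less coding RNA. The comparison rows had a listed 5'UTR of 100 to 200 nt, 3104 in heart and 2939 in tibialis anterior, of which 3103 and 2938 were used, with 1 row kept for each symbol. The length rule used no footprint value. The listed lengths of the long 5'UTRs had a median of 638.5 nt in heart and 640.0 nt in tibialis anterior, and the longest, that of the nuclear corepressor gene Lcor, was 2860 nt.

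Ribosome-protected fragments (RPF, or footprints) and RNA depleted of ribosomal RNA were sequenced from the heart and from the tibialis anterior (TA, a fast hindlimb muscle) of male C57BL/6J mice aged 10 weeks. The 4 groups, heart RPF, heart RNA, TA RPF and TA RNA, shared strain, sex and age, and the labels name no genetic change or drug treatment. Cycloheximide, which holds ribosomes in place on mRNA, was in the lysis buffer of all of them. Each group was 1 library, so the differences are described without p-values or replicate spread. How many mice gave a library was not given in the sources used here.

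A ribosome usually loads at the capped end of an mRNA and scans the 5'UTR until it meets a start codon. A long 5'UTR gives more room for start codons ahead of the main one, and such upstream reading frames can take up scanning ribosomes, which is known to lower translation of the coding sequence or to tie it to stress signals. Long 5'UTRs are a known feature of mRNAs for growth regulators, kinases and transcription factors.

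The depth recovered on coding sequences was about 28100000 footprint and 9300000 RNA reads for heart, and 28600000 footprint and 16000000 RNA reads for TA. All 10 heart muscle markers were listed in heart, at 11.1% of its RNA, and all 11 fast skeletal markers in TA, at 23.0%. Of the other cell types, endothelial markers took 0.0900% of heart RNA and 0.0199% of TA RNA, fibroblast markers 0.136% and 0.139%, macrophage markers 0.0156% and 0.00257%, and red cell markers 1.25% and 0.0472%. The 3 adipocyte markers were not listed in heart and took 0.00250% of TA RNA, and nerve markers took 0.000215% and 0.00166%. Their part in the results was not tested.

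Sequence windows show the start codons of members that the results turn on. Each window has 12 bases, an ATG in capitals and 12 more bases, 5′ to 3′, from GENCODE M21 transcripts (mouse build GRCm38) with a 5'UTR of exactly the listed length. The upstream windows mark the start of the longest reading frame that begins and ends inside the 5'UTR, and the coding windows the main start codon. The first group had low coding efficiency, the second a 5'UTR dense in footprints, the third a long 5'UTR with few footprints or a high coding efficiency, and the last no upstream ATG.
Ccni upstream: ccccgccgccctATGgcgagagggcgc
Ccni coding start: caaagggataccATGaagtttccagga
Mapk6 upstream: gtccaacactgaATGtatctgcactgt
Mapk6 coding start: aagggtttcaaaATGgcagagaaattc
Dsel upstream: agggacacagacATGctatataatttc
Zhx1 upstream: ttaaggaacagaATGctgaagaagcta
Ibtk upstream: ctttcactaaggATGagtccctgcgcg
Wdr24 upstream: attccaaggtgtATGaactcagtccat
Wdr24 coding start: acctgtgcagacATGgaaaagatgtcc
St6gal1 upstream: ccggatgctgagATGgtttttgatcat
Hspb7 upstream: cggggtacctgcATGtatatactctct
Hspb7 coding start: cgctgcctgtggATGagccatcggacc
Lcor upstream: ctggttatacaaATGgaatcttttctc
Trim23 upstream: tttagtatttatATGtatctttccttg
Cdkn1b coding start: ccgaggaggaagATGtcaaacgtgaga
Jun coding start: acggaccgttctATGactgcaaagatg
Atp2a2 coding start: gcccccgcagccATGgagaacgctcac

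The number of ATG triplets ahead of the coding start, in any frame, was 4 in Ccni, 12 in Mapk6, 23 in Dsel, 11 in Zhx1, 4 in Ibtk, 10 in Wdr24, 6 in St6gal1, 6 in Hspb7, 48 in Lcor and 39 in Trim23. It was 0 in Cdkn1b, Jun and Atp2a2. The longest contained frame was 102 nt in Ccni, beginning 383 nt ahead of the coding start, 90 nt in Mapk6, 207 nt in Zhx1, 153 nt in Wdr24 and 192 nt in Hspb7, stop codon included. These frames were read from the sequence alone, and the deposited values give 1 sum for the whole 5'UTR, so footprints could not be placed on a frame.

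Coding sequences behind a long 5'UTR carried fewer footprints for their RNA than those behind a short one. Coding efficiency is log2 of coding RPF over coding RNA minus its median over all rows of the tissue with at least 1 RPM of coding RNA, so 0 is the median row. The long 5'UTR rows had a median of -0.58 in heart (0.668-fold of the median row, quartiles -1.33 and 0.22) and -0.50 in TA (0.705-fold). Rows of 100 to 200 nt had medians of 0.05 and 0.04. In heart 281 of the 788 long rows (35.7%) were at least 2-fold below the median row, against 15.5% of rows of 100 to 200 nt and 17.8% of all rows. In TA 231 of 738 (31.3%) were, against 16.4% and a background of 18.7%. Fewer were at least 2-fold above: 74 in heart (9.39%, background 16%) and 63 in TA (8.54%, background 15.4%). The other 433 members in heart lay between the 2-fold limits.

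Above 100 nt, coding efficiency stepped down from each length class to the next in both tissues. In heart the median was 0.23 for 5'UTRs under 50 nt, -0.28 from 300 nt up to 500 nt, -0.53 from 500 nt up to 750 nt, -0.77 from there up to 1000 nt and -0.96 at 1000 nt or more (n = 86). In TA the last 3 medians were -0.44, -0.72 and -0.74. At 1000 nt or more, 48.8% of heart rows and 44.4% of TA rows were at least 2-fold below the median row. The values on both sides of the threshold were close. Rows within 20 nt below 500 nt had medians of -0.30 (n = 99) in heart and -0.44 (n = 91) in TA. Rows within 20 nt above had -0.46 (n = 89) and -0.49 (n = 79). Within the members the rank relation of length to coding efficiency was weak (Spearman rho -0.10 over 788 rows in heart and -0.09 over 738 in TA). Rows are not replicates, and these correlations are descriptions.

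**Figure D1:**
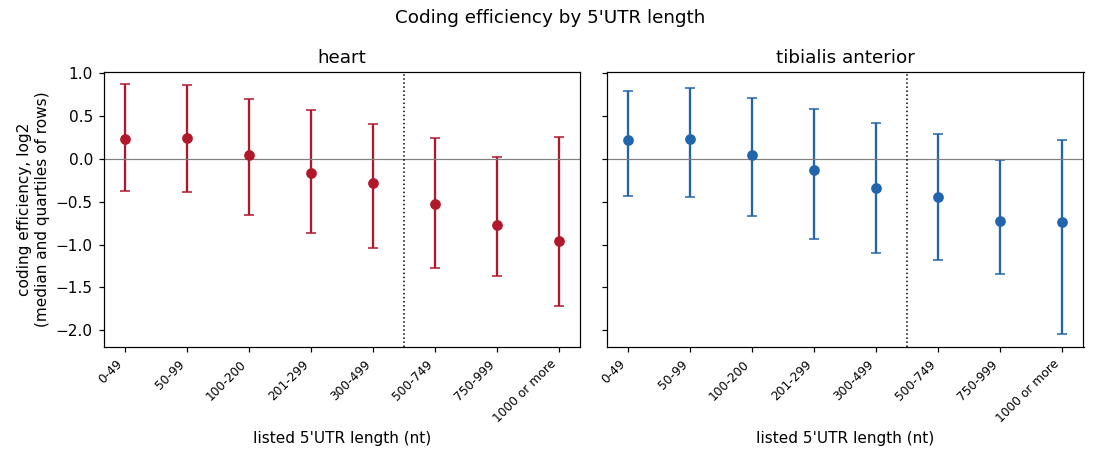
Coding efficiency (log2, 0 is the median row) by listed 5'UTR length in nt, for heart and TA. Points are medians over rows and bars span the quartiles; the dotted line marks 500 nt, and the medians fall from 0.23 to -0.96 in heart and from 0.22 to -0.74 in TA.

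Coding length also moved with 5'UTR length and with efficiency. The members had a median coding length of 1731 nt in heart and 1779 nt in TA, against 1428 and 1422 nt in rows of 100 to 200 nt, and across the members coding length ranked against efficiency with a rho of -0.27 in heart and -0.29 in TA. Within each coding length class the long 5'UTR rows were still lower in heart: 0.22 against 0.65 below 750 nt of coding sequence, -0.46 against 0.22 from 750 to 1500 nt, -0.61 against -0.13 from 1500 to 3000 nt and -0.91 against -0.54 from 3000 nt up. In TA the same pairs of medians were 0.46 and 0.55, -0.38 and 0.21, -0.50 and -0.10, and -0.88 and -0.53. The gap was smallest among the shortest coding sequences of TA (n = 74).

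RNA level was close between the groups, with median coding RNA of 21.2 RPM for members and 21.8 for rows of 100 to 200 nt in heart, and 12.6 and 14.7 in TA. Members with more RNA had lower efficiency: the heart median was 0.13 at 1 to 5 RPM, -0.46 at 5 to 20 RPM, -0.72 at 20 to 100 RPM and -0.90 above 100 RPM, where rows of 100 to 200 nt stood at 0.31, 0.08, -0.08 and 0.05. In TA the members stood at -0.16, -0.41, -0.80 and -0.97. The members were thus lower than the comparison rows in every RNA class of heart, and the gap was widest above 100 RPM. Coding RNA is the denominator of the efficiency, so level and efficiency are not independent. Median coding length also rose over the member classes of heart, from 1278 nt to 2788.5 nt. Above 100 RPM it was 2056.5 nt in rows of 100 to 200 nt.

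A listed 5'UTR is an annotation, and RNA reads show how far it was covered in these tissues. Per nt, the long 5'UTRs held less RNA than their coding sequences, with a median log2 ratio of -1.33 in heart and -1.35 in TA, and rows of 100 to 200 nt held still less (-1.90 and -1.72). In heart 306 members (38.8%, background 29.1%) had a 5'UTR RNA density of at least 50% of the coding density, and in TA 291 (39.4%, background 33%). At the other end, 153 members in heart (19.4%, background 23%) and 120 in TA (16.3%, background 19.1%) had under 12.5%, and 22 of 788 members in heart (background 24.7% of rows with a listed 5'UTR) and 21 of 738 in TA (background 24.1%) had no RNA read on the 5'UTR. Ndufa13, a complex I subunit, was one sparsely covered row. Its 775 nt 5'UTR held 0.32 RPM of RNA in heart and 0.31 in TA, while its coding sequence held 333.92 and 220.16 RPM. Its coding sequence had a high efficiency, 1.36 in heart and 0.92 in TA.

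The members whose 5'UTR was well covered by RNA had the lower coding efficiencies. The heart median was -0.73 where 5'UTR RNA density was at least 50% of coding, -0.59 between 12.5% and 50%, and -0.27 below. In TA it was -0.70, -0.46 and -0.19. Rows of 100 to 200 nt showed no such order in heart, with 0.07, 0.11 and -0.13, and those of TA ran the other way, with 0.18, 0.08 and -0.21. Among well covered rows the difference between the medians of long and short 5'UTRs was therefore -0.81 in heart and -0.88 in TA, against -0.63 and -0.55 over all rows. Among the least covered rows of TA the members were not lower.

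Footprints also lay on the long 5'UTRs themselves. Of the members, 576 in heart and 442 in TA had at least 1 RPM of RNA on the 5'UTR, and only these are described next. Their median ratio of RPF to RNA on the 5'UTR was 0.637 in heart and 0.555 in TA. Set against the same row's coding ratio, the 5'UTR ratio was higher, by a median of 0.50 on the log2 scale in heart and 0.34 in TA. In rows of 100 to 200 nt it was lower, with medians of -0.64 (n = 872) and -1.22 (n = 613). In heart 210 members (36.5%, background 27.6%) had a 5'UTR ratio at least 2-fold above the coding ratio and 95 (16.5%, background 32%) at least 2-fold below. In TA 151 (34.2%, background 21.1%) were above and 96 (21.7%, background 40.8%) below.

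The minimum on 5'UTR RNA bears on that comparison, because a short 5'UTR reaches 1 RPM only where its RNA is high. When rows were kept by the 5'UTR RNA expected from their coding RNA density instead, a choice made after the data were seen, the members stood at 0.61 in heart (n = 744) and 0.49 in TA (n = 642). Rows of 100 to 200 nt then stood at 0.31 (n = 2274) and -0.29 (n = 1806). The members were higher under both choices, but the gap in heart shrank from 1.15 to 0.31 on the log2 scale. Under the second choice 39.7% of members in heart had a 5'UTR ratio at least 2-fold above the coding ratio, close to the background of 36.6%, and 37.4% in TA, where the background was 28.5%.

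Per nt, a typical long 5'UTR carried 62.6% of its coding footprint density in heart. The median log2 ratio of 5'UTR to coding footprint density was -0.68 in heart and -0.80 in TA, against -1.94 and -2.65 in rows of 100 to 200 nt. The 5'UTR was denser than the coding sequence in 195 of 576 members in heart (33.9%, background 23.5%) and in 153 of 442 in TA (34.6%, background 19.5%). At least 2-fold denser were 75 in heart (13.0%, background 9.54%) and 58 in TA (13.1%, background 7.46%). The 195 and 153 dense members had a median coding efficiency of -1.39 in heart and -1.71 in TA, against -0.44 and -0.43 in the other members. Coding footprints enter both measures, so they are not independent. The 5'UTR ratio, which does not contain coding reads, ranked weakly with coding efficiency in the opposite sense (rho 0.25 over 576 rows in heart and 0.26 over 442 in TA).

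**Figure D2:**
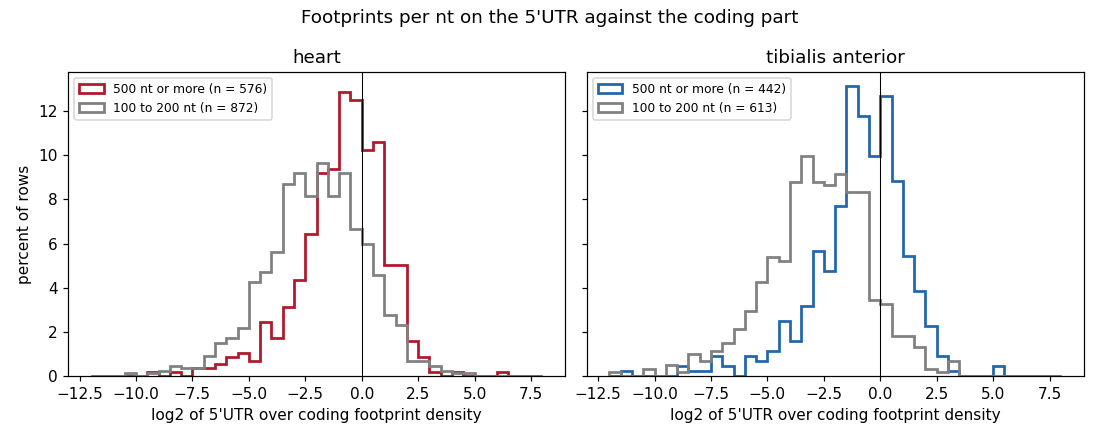
Distribution of the log2 ratio of footprints per nt on the 5'UTR to footprints per nt on the coding sequence, as percent of rows, for 5'UTRs of 500 nt or more (coloured) and of 100 to 200 nt (grey) with at least 1 RPM of 5'UTR RNA. Values right of 0 are 5'UTRs denser than coding, 33.9% of long rows in heart and 34.6% in TA.

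Summed over all members, 5'UTRs took 6.44% of the footprints on 5'UTR and coding sequence in heart (95% Wilson interval 6.40 to 6.47%) and 7.32% of the RNA reads (7.26 to 7.38%). In TA they took 11.8% of footprints (11.8 to 11.9%) and 12.4% of RNA (12.3 to 12.5%). Intervals printed here and below cover counting error only. The heart sums were dominated by Atp2a2, the calcium pump of the sarcoplasmic reticulum, with 37407.4 RPM of coding footprints and 25167.0 RPM of coding RNA. Without the 10 rows with most 5'UTR reads, taken for each library on its own, the shares were 11.6% of footprints and 9.86% of RNA in heart and 10.5% and 10.3% in TA, which turns their order in both tissues. Over 10 alternative settings the order turned in 6 in heart and in 4 in TA, so neither share can be called the larger. In rows of 100 to 200 nt the 5'UTR took 3.02% of footprints and 2.97% of RNA in heart, and 1.49% and 2.84% in TA.

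Upstream ATGs were counted in GENCODE transcripts whose 5'UTR was between 80% and 125% of the listed length, found for 647 of 788 members in heart (82.1%) and 608 of 738 in TA (82.4%). The members had a median of 4 upstream ATGs, and only 32 in heart and 33 in TA had none. Coding efficiency fell as the number rose. In heart the median was 0.17 with none (n = 32), -0.30 with 1 or 2 (n = 135), -0.55 with 3 to 5 (n = 222), -0.92 with 6 to 9 (n = 168) and -1.34 with 10 or more (n = 90), and 60.0% of the last class were at least 2-fold below the median row. In TA the same classes had medians of 0.39, -0.16, -0.46, -0.81 and -1.06. The members without an upstream ATG were at or above the level of all rows with a 5'UTR of 100 to 200 nt, a group that includes rows with upstream ATGs. Their coding sequences were also shorter, with a median of 1170 nt in heart and 1173 nt in TA, against 1602 and 1638 nt with 1 or 2 ATGs.

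**Figure D3:**
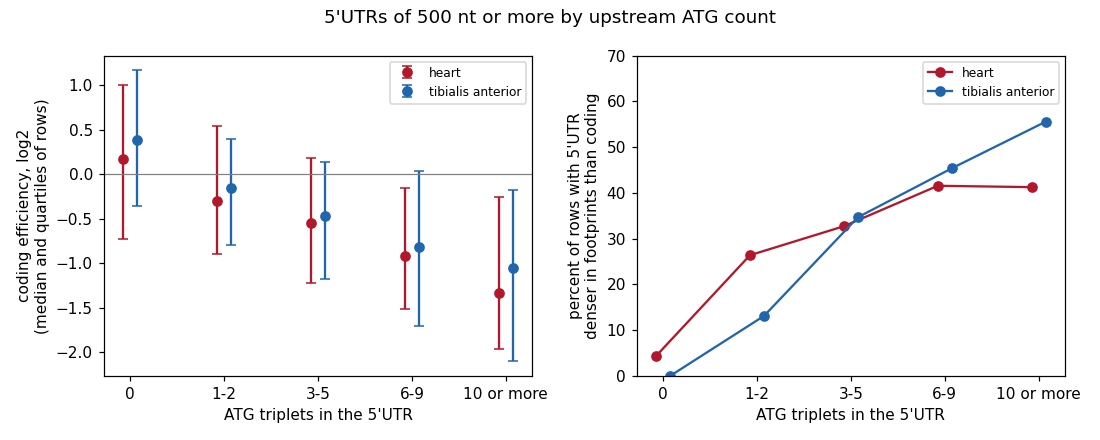
Members by number of ATG triplets in the 5'UTR. Coding footprints enter both panels. Left, coding efficiency (log2, medians with quartile bars over rows); right, percent of members with at least 1 RPM of 5'UTR RNA whose 5'UTR was denser in footprints than the coding sequence, rising from 4.35% to 41.2% in heart and from 0% to 55.6% in TA.

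The share of members whose 5'UTR was denser in footprints than the coding sequence rose with the ATG count too. It went from 1 of 23 with none to 33 of 80 with 10 or more in heart, and from 0 of 16 to 35 of 63 in TA. Coding footprints enter this share, and their median fell from 14.2 to 2.86 RPM per 1000 nt in heart. The median 5'UTR ratio of RPF to RNA was lower with 10 or more ATGs than with none, 0.352 against 0.680 in heart and 0.360 against 0.574 in TA. It was highest with 1 or 2 ATGs in heart (0.947) and with 3 to 5 in TA (0.717). The ATG count also went with length (rho 0.44 in heart) and with lower GC content (rho -0.58), from 66.5% GC in members without an ATG to 50.1% with 10 or more. Within the 500 to 750 nt class of heart the medians were -0.20 with up to 2 ATGs (n = 147), -0.59 with 3 to 5 and -0.84 with 6 or more (n = 133). Among members with well covered 5'UTRs they were 0.55 (n = 36), -0.52 and -1.22 (n = 139) in heart, and 0.40, -0.46 and -1.21 in TA. GC content itself ranked little with coding efficiency (rho 0.07 in heart and 0.04 in TA).

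The last 100 nt before the coding start, a window of equal size in both groups, could be read for 95.1% of the members and 91.3% of rows of 100 to 200 nt in heart. These windows came from transcripts with a matching coding length. A 5'UTR near the listed length was not required, and 82.1% of members but 68.3% of rows of 100 to 200 nt had one in heart. An ATG on the coding strand in that window was found in 43.1% of members and 28.0% of rows of 100 to 200 nt in heart, and in 42.8% and 27.5% in TA. Members with one had a median coding efficiency of -0.94 in heart and -0.79 in TA, and those without one -0.30 and -0.29. In rows of 100 to 200 nt the medians were -0.46 with and 0.19 without in heart, and -0.47 and 0.23 in TA. The members were lower than the comparison rows on both sides of that split in both tissues. A count over whole 5'UTRs was void for rows of 100 to 200 nt, since 68.3% of them in heart had a matching transcript.

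Some members carried most of their footprints on the 5'UTR. This held for 79 of 576 members in heart (13.7%, background 4.9%) and 56 of 442 in TA (12.7%, background 4.22%). A longer 5'UTR takes more of a row's length, which enters this share. These members had a median of 6 and 8 upstream ATGs. Genes are named from here on among members with at least 10 RPM of coding RNA and 1 RPM of 5'UTR RNA, 474 in heart and 323 in TA, so highest and lowest refer to these, and within a gene list to all its members. Mbd5, a methyl-CpG-binding domain protein, had the highest density ratio in both tissues. Its 1258 nt 5'UTR held 42.8 RPM of footprints per 1000 nt in heart and 7.17 in TA, and its coding sequence 0.471 and 0.176. RNA per 1000 nt was 15.1 and 13.9 RPM on the 5'UTR and 7.09 and 5.36 RPM on the coding sequence. So the 5'UTR RNA was higher than the coding RNA as well, and 95.7% of the row's footprints in heart and 90.8% in TA lay on the 5'UTR.

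Mkks, which encodes a chaperonin-like protein, came next. Its footprints per 1000 nt were 21.8 RPM on the 5'UTR against 1.25 on the coding sequence in heart, and 20.8 against 0.574 in TA. Its RNA was also denser on the 5'UTR, 56.8 against 20.0 RPM per 1000 nt in heart and 51.6 against 7.21 in TA. The excess over RNA was smaller than the excess in footprints: 5'UTR over coding ratio differed by log2 2.56 in heart and 2.22 in TA.

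Wdr24, a subunit of the GATOR complex that senses amino acids, had even RNA on both parts, 7.03 and 7.01 RPM per 1000 nt in heart and 7.08 and 6.35 in TA. Its footprints were 29.8 RPM per 1000 nt on the 5'UTR against 3.37 on the coding sequence in heart, and 20.4 against 2.96 in TA. Its 5'UTR ratio of RPF to RNA was 4.24 in heart (3.05 to 6.07) against 0.480 on the coding sequence (0.390 to 0.593). The excess on this 5'UTR was thus in both footprint libraries and in neither RNA library.

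St6gal1, a sialyltransferase, Nfat5, the osmotic stress factor, Zdhhc6, a palmitoyltransferase, and Srgap2, a regulator of the cytoskeleton, filled the other places. St6gal1 had 11.5 RPM of footprints per 1000 nt on the 5'UTR and 1.41 on the coding sequence in heart, and 3.81 and 0.987 in TA. Nfat5 had 11.7 and 1.51 in heart, and 5.84 and 1.39 in TA. Zdhhc6 had 9.84 and 2.73 in heart, and 14.5 and 1.93 in TA. In TA Srgap2 had 28.5 against 3.99. In St6gal1, Nfat5 and Zdhhc6 the 5'UTR was the denser part in both tissues.

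At the other extreme were long 5'UTRs with RNA and almost no footprints. Lcor, with the longest 5'UTR, had 6.85 RPM of RNA on it in heart and 5.96 in TA, but 0.07 and 0.14 RPM of footprints, which are about 2 and 4 reads. Its coding sequence had 3.08 RPM of footprints for 15.41 RPM of RNA in heart and 1.68 for 15.28 in TA, a coding efficiency of -1.85 and -2.85. Trim23, a ubiquitin ligase with an ARF domain, had 0 reads of footprints in heart and 1 in TA on a 1955 nt 5'UTR. It had only 1.28 and 1.24 RPM of RNA there for 50.73 and 62.73 RPM on the coding sequence, and its coding efficiency was 0.47 and 0.11. Both 5'UTRs were rich in ATGs, and the coding efficiencies of these genes lay on opposite sides of the median row.

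Nap1l1, a histone chaperone, Srek1, a splicing regulator, and Lime1, a signalling adaptor, had low 5'UTR ratios as well. In heart Nap1l1 had 5.77 RPM of footprints for 46.13 RPM of RNA on the 5'UTR, Srek1 0.04 for 4.71, and Lime1 0.11 for 14.56.

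The lowest coding efficiencies in heart were those of Il15, a cytokine made by muscle, Ccni, an atypical cyclin, Mapk6, an atypical MAP kinase, Dsel, an epimerase of dermatan sulfate, and Ulk2, an autophagy kinase. Il15 had 0.71 RPM of coding footprints for 33.39 RPM of RNA in heart, an efficiency of -4.93. Ccni had 2.59 for 105.74 RPM in heart and 1.54 for 39.75 in TA, efficiencies of -4.86 and -4.34. Its coding ratio was 0.0245 in heart (0.0190 to 0.0310) and 0.0387 in TA (0.0278 to 0.0525), while its 5'UTR ratio was 0.652 (0.488 to 0.879) and 0.983 (0.722 to 1.35). The intervals of the coding and 5'UTR ratios of Ccni did not overlap in either tissue. Mapk6 stood at -4.46, Dsel at -3.92 and Ulk2 at -3.64 in heart.

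In TA the lowest were Map3k10, a mixed lineage kinase, at -4.55, Mbd5 at -4.53, Ccni, the zinc finger and homeobox factor Zhx1 at -4.11 and the phosphatase Ptp4a2 at -4.03. Zhx1 had 3.46 RPM of coding footprints for 73.28 RPM of RNA in TA. On its 5'UTR the footprints were 1.75 RPM for 10.37 RPM of RNA, a ratio of 0.169 (0.120 to 0.232) against 0.0472 (0.0381 to 0.0580) on the coding sequence.

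A long listed 5'UTR did not go with low efficiency in every row. Hspb7, a small heat shock protein of striated muscle, had 1067.00 RPM of coding footprints for 291.97 RPM of RNA in heart and 95.91 for 20.56 in TA, efficiencies of 2.31 and 2.48. Cryab, the small heat shock protein alpha B crystallin, stood at 1.99 and 2.36, and Igfbp5, a binding protein of insulin-like growth factors, at 2.07 and 2.45. Cdkn1b, which encodes the cell cycle inhibitor p27, stood at 2.03 and 2.66. Ly6e, a membrane-anchored surface protein, stood at 2.12 in heart, and Atp1b2, a sodium pump subunit, at 2.67 in TA. RNA on the 5'UTR was sparse in some of these rows: per nt, the log2 ratio to coding RNA was -4.00 for Hspb7 and -3.53 for Cryab in heart, but -0.40 for Igfbp5.

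Jun, an immediate early transcription factor with no upstream ATG, was the highest of the DNA-binding factors in heart. It had 53.14 RPM of coding footprints for 20.12 RPM of RNA, an efficiency of 1.84, and 38.54 RPM of footprints for 13.81 RPM of RNA on its 951 nt 5'UTR. Its 5'UTR ratio of 2.79 (2.32 to 3.38) and its coding ratio of 2.64 (2.27 to 3.09) had overlapping intervals. This 5'UTR without an ATG thus held footprints in proportion to its RNA, as its coding sequence did.

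Genes known for regulatory upstream reading frames were the first of the gene lists. Of the list, 32 were measured in heart and 28 in TA, and 12 of them were members in both. In heart 6 of the 12 were at least 2-fold below the median row and 1 above, with a median of -1.07, and in TA 7 were below and 1 above, with a median of -1.51, beside backgrounds of 17.8% and 18.7% below over all rows. The list names genes because of their 5'UTRs, so its direction is not independent evidence. The 5'UTR was denser in footprints than the coding sequence in 6 of the 12 in heart and 7 in TA. The member above was Cdkn1b, which has no upstream ATG in the matched transcript.

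Slc35a4, whose upstream frame is known to be translated, had 6.55 RPM of footprints on the 5'UTR and 1.24 on the coding sequence in heart, and 12.98 and 2.34 in TA. Its RNA was 17.98 and 17.23 RPM in heart and 18.01 and 18.38 in TA, so 5'UTR and coding sequence, of like length, had like RNA. Eif5, the initiation factor that helps choose the start codon, had 29.69 RPM of footprints on the 5'UTR for 19.26 RPM of RNA in heart, a ratio of 1.54 (1.31 to 1.82). Its coding ratio was 0.295 (0.274 to 0.318). Azin1, an antizyme inhibitor of polyamine metabolism, had ratios of 1.47 on the 5'UTR and 0.299 on the coding sequence in heart, and 0.984 and 0.454 in TA.

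Atf4, the transcription factor of the integrated stress response, differed from these. Its footprints per 1000 nt were 10.6 RPM on the 5'UTR and 40.0 on the coding sequence in heart, and 7.0 and 42.4 in TA, and its coding efficiency was -0.35 and -1.41. Ibtk, an inhibitor of Bruton's tyrosine kinase, stood at -2.87 in heart and -3.91 in TA, Ppp1r15b, a subunit of the phosphatase of eIF2 alpha, at -0.25 and -0.22, and Klf9, a Krueppel-like factor, at 0.21 and 0.11. Ppp1r15b was nevertheless denser in footprints on the 5'UTR, 13.7 against 8.74 RPM per 1000 nt in heart and 7.95 against 6.23 in TA.

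**Figure D4:**
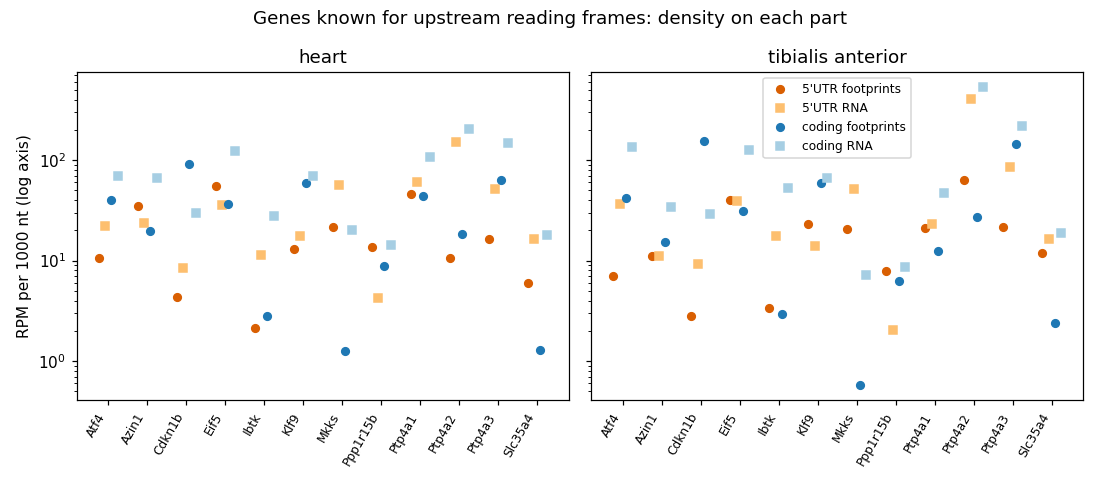
RPM per 1000 nt (log axis) of footprints (circles) and RNA (squares) on the 5'UTR (orange) and coding sequence (blue) of the 12 members known for upstream reading frames, in heart and TA. Mkks and Slc35a4 have 5'UTR footprints far above coding footprints in both tissues, and Cdkn1b has the reverse.

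The 3 Ptp4a genes, which encode small membrane-bound phosphatases, differed among themselves. Ptp4a2 had coding footprints of 9.07 RPM for 100.93 RPM of RNA in heart and 13.54 for 267.42 in TA, and stood at -3.02 and -4.03. Ptp4a1 stood at -0.84 and -1.62, and Ptp4a3 at -0.79 and -0.36. The Ptp4a2 5'UTR held 7.69 RPM of footprints in heart and 46.31 in TA for 109.17 and 295.18 RPM of RNA, so 45.9% of its footprints lay on the 5'UTR in heart and 77.4% in TA. Such near-identical relatives may share reads, and how reads with several matches were counted was not given in the sources used here.

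Among protein kinases 26 members were measured in heart and 22 in TA, and 11 and 10 of them were at least 2-fold below the median row, with medians of -0.57 and -0.88. These are 42.3% and 45.5% of the kinases, beside 35.7% and 31.3% of all members. Kinases with a 5'UTR of 100 to 200 nt had medians of -0.11 (n = 52) and -0.21 (n = 48). Mapk6 was the lowest in heart and Map3k10 in TA. Wnk1, a kinase that controls salt transport, was the most abundant in heart, with 97.31 RPM of coding footprints for 1195.81 RPM of RNA and an efficiency of -3.18. Its 1023 nt 5'UTR held 33.48 RPM of footprints for 22.48 RPM of RNA. Trib1, a pseudokinase, was the highest of the list, at 1.06 in heart and 1.14 in TA. Hipk3, the most abundant in TA, stood at -2.12 and -2.01.

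Of 20 phosphatase members in each tissue, 8 were at least 2-fold below in heart and 8 in TA, which is 40% in each beside the same 35.7% and 31.3%, and the medians were -0.81 and -0.54. Ptp4a2 was their lowest in both tissues. Phosphatases with a 5'UTR of 100 to 200 nt had medians of -0.28 and -0.39. Zinc finger, KLF and BTB factors had 35 members in each tissue. Of these, 22 were at least 2-fold below in heart (62.9%, median -1.23) and 15 in TA (42.9%, median -0.64), beside 17.8% and 18.7% of all rows. Their relatives with 5'UTRs of 100 to 200 nt were low as well, with medians of -1.0 in heart and -0.88 in TA. Zfp664, a zinc finger gene, was the lowest, at -3.22 and -2.97, with 82.6% and 83.6% of its footprints on the 5'UTR.

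Other DNA-binding factors were not low as a list: of 27 in heart 4 were at least 2-fold below and 7 above (median 0.10), and of 22 in TA 5 were below and 6 above (median 0.03). Of the members among them, Nfat5 was the lowest in both tissues (-3.29 and -2.37), and Tbx3, a T-box factor, the highest in TA (2.68). Genes with a reported cap-independent or structured 5'UTR had 10 members in heart, 3 below (30%) and 3 above. They had 8 in TA, again 3 below (37.5%) and 3 above. Growth factors, receptors and their adaptors had 25 members in heart (3 below, 2 above, median -0.15) and 22 in TA (2 below, 2 above, median 0.06). Tgfb3, a secreted growth factor with a 1109 nt 5'UTR, was their lowest, at -1.37 and -1.92, with 61.5% and 65.7% of its footprints on the 5'UTR.

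RNA-binding and translation factors had 15 members in each tissue. In heart 4 were below (26.7%) and 2 above, and in TA 5 below (33.3%) and 1 above. For this and the other lists, 17.8% of all rows were below in heart and 18.7% in TA, and 16% and 15.4% above. The medians of the RNA-binding and translation members were -0.74 and -0.53, against 0.15 in both tissues for those with a 5'UTR of 100 to 200 nt. Mbnl1, a splicing factor of muscle, was the lowest member, at -1.73 and -1.83. Ubiquitin ligases, adaptors and deubiquitinases had medians of -0.40 in heart (n = 29, 8 or 27.6% below, 5 above) and -0.59 in TA (n = 27, 6 or 22.2% below, 0 above). Solute carriers had -0.45 (n = 20, 7 or 35% below, 5 above) and -0.51 (n = 19, 5 or 26.3% below, 3 above). Small GTPases and their regulators had -0.27 (n = 19, 4 or 21.1% below, 2 above) and 0.05 (n = 13, 3 or 23.1% below, 1 above). Ion channels had -0.50 (n = 6, 1 below, 0 above) and -0.37 (n = 7, 1 below, 1 above). With 5'UTRs of 100 to 200 nt, ubiquitin genes had medians of -0.42 in heart and -0.18 in TA, and solute carriers -0.20 and -0.35. Small GTPase genes had -0.29 and -0.24, and ion channels -0.55 and -0.69. Members were not lower than these for small GTPases and ion channels in either tissue, nor for ubiquitin genes in heart.

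Members made up 7.38% of the rows with enough coding RNA in heart and 7.36% in TA, and the lists of abundant muscle genes were set beside these shares. Of 46 listed sarcomere and Z-disc genes in heart and 54 in TA none had a 5'UTR of 500 nt or more, and none of 70 cytosolic ribosomal protein genes did in either tissue. Of 90 oxidative phosphorylation subunit genes in heart 5 did (5.56%), a share near that of all rows, and none of these was 2-fold below the median row in either tissue (medians 0.55 and 0.38). Atp5f1, an ATP synthase subunit, had 1443.57 RPM of coding footprints in heart and 713.32 in TA, but 28.04 and 13.60 RPM of RNA on its 562 nt 5'UTR for 1337.41 and 656.44 RPM on the coding sequence. Its log2 ratio of 5'UTR to coding RNA density was -5.13 in heart and -5.14 in TA, and that of Atp5c1 was -5.64 and -5.69.

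Between heart and TA the members kept their order of coding efficiency. Over the 700 genes in both tables Pearson's r was 0.89 and Spearman's rho 0.89, as a description across genes whose libraries come from the same strain and protocol. The same correlations over all 9633 genes in both tables were 0.88 and 0.87, close to those of the members. Of the 255 genes at least 2-fold below the median row in heart, 197 (77.3%) were also below in TA, which is 88.3% of the 223 below in TA. Over all rows the shares were 77.2% and 73.4%. At least 2-fold above were 60 in heart and 56 in TA, 34 of them in both, or 56.7% and 60.7%, where all rows had 66.8% and 69.2%. A 5'UTR denser than the coding sequence was shared by 117 of the 145 such genes in heart (80.7%) and of the 147 in TA (79.6%), among 417 genes with enough 5'UTR RNA in both. Over all 2161 such rows it was shared by 67.0% of those in heart and 79.0% of those in TA.

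**Figure D5:**
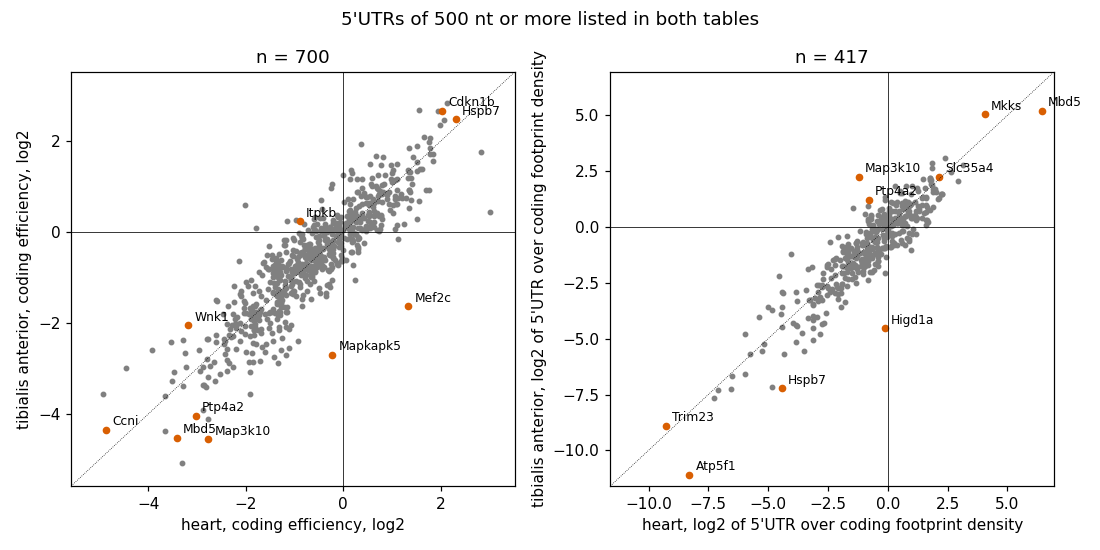
Each point is a gene with a 5'UTR of 500 nt or more in both tables. Left, coding efficiency (log2) in heart and TA (n = 700); right, log2 ratio of 5'UTR to coding footprint density (n = 417, at least 1 RPM of 5'UTR RNA in both); Mef2c lies apart on the left and Higd1a on the right.

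Few members differed in coding efficiency between the tissues. The centred difference was at least 2-fold higher in heart for 29 genes (4.14%, background 4.07%) and lower for 27 (3.86%, background 2.34%). The higher share was near that of all rows, and the lower share was above it. Without centring, which moves every row by -0.18 on the log2 scale, the counts were 16 higher and 50 lower, so which count is larger depends on the centring. The coding RNA of 111 members (15.9%, background 12.9%) was at least 2-fold higher in heart and that of 85 (12.1%, background 10.3%) lower, after centring on a shift of 0.69 over all genes. Without centring these counts were 268 and 23. In bulk tissue, fewer cells of a type and less RNA per cell cannot be told apart. Hspb7, the kelch-repeat gene Ivns1abp, the leucine zipper gene Tsc22d4, the microtubule-binding gene Clasp1 and Cryab were the genes with most excess RNA in heart, by 3.14, 2.80, 2.47, 2.46 and 1.8 on the centred log2 scale. Stim1, the calcium sensor of store-operated entry, was lowest (-3.31), followed by Mef2c (-3.0), Kif3c (-2.64), Hr (-2.42) and Ppm1l (-2.19).

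Mef2c, a transcription factor of the MEF2 family, was the only gene at least 2-fold above the median row in one tissue and 2-fold below in the other. It had 80.59 RPM of coding footprints for 43.24 RPM of RNA in heart, and 57.92 for 215.31 in TA. Its coding ratio was 1.86 in heart (1.68 to 2.08) and 0.269 in TA (0.254 to 0.285), and its coding efficiency 1.34 and -1.63. RNA on the 578 nt 5'UTR was 10.4 RPM per 1000 nt in heart and 138 in TA, against 31.0 and 154 on the coding sequence. Coding footprints were thus close in the tissues, RNA was higher in TA, and the listed 5'UTR was more fully covered there.

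Mapkapk5, a kinase downstream of MAP kinases, had 40.63 RPM of coding footprints for 64.43 RPM of RNA in heart and 9.02 for 70.67 in TA, so its RNA was close and its efficiency 2.47 higher in heart. Map3k10, the kinase gene Tesk1 and the corepressor gene Hr were also higher in heart, by 1.79, 1.64 and 1.46. Map3k10 had 42 reads of coding footprints in heart and 23 in TA, so its values are among the least precise. On the lower side in heart were Mapk6 (-1.47), Wnk1 (-1.13), Itpkb, an inositol trisphosphate kinase gene (-1.12), Slc28a2, a nucleoside carrier gene (-1.05) and Ivns1abp (-1.05).

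The 5'UTR efficiency of the members was lower in heart after each tissue was centred on all its 5'UTRs. Of 417 genes 24 were at least 2-fold higher in heart (5.76%, background 14.1%) and 69 lower (16.5%, background 13.2%), with a median of -0.31, where rows of 100 to 200 nt had 0.21. This direction depends on the centring. Uncentred, the members' median was 0.01 and that of rows of 100 to 200 nt 0.53, and 52 members were higher in heart and 33 lower. Higd1a, a mitochondrial protein induced by low oxygen, stood out: its 511 nt 5'UTR held 63.02 RPM of footprints in heart and 2.17 in TA for 9.10 and 5.09 RPM of RNA. Its coding footprints were 37.83 and 29.00 RPM, for 81.66 and 49.50 RPM of RNA. So its 5'UTR efficiency was higher in heart by 3.65 on the centred log2 scale. The tissues differed far less in coding footprints than in 5'UTR footprints. Hspb7 followed with 2.58 and Atp5f1 with 2.46, with 1.19 and 0.14 RPM of 5'UTR footprints in TA. Map3k10 (-2.51), Armcx4 (-2.42), Hipk3 (-2.31), Sema6a (-1.97) and Ankib1 (-1.85) were the lowest in heart. Map3k10 and Armcx4 had 0.04 and 0.14 RPM of 5'UTR footprints in heart, which are a few reads.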

How the data were processed

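The deposited tables give 1 row per mRNA with reads on the 5'UTR, coding sequence and 3'UTR. The deposited values are RPM, reads scaled by the authors to the mapped reads of each library, per the file headers. Per the labels, the authors aligned reads to transcripts of RefSeq. The submitters' processing notes name Bowtie and mm9. Near-identical gene copies are uncertain, since the counting of multiply matching reads is not stated in the sources at hand. The RNA kit does not mark strand, so overlapping antisense genes cannot be told apart.

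Ratios were taken as log2 with a pseudocount of 0.1 RPM, after a minimum of 1 RPM of coding RNA, and for 5'UTR measures 1 RPM of 5'UTR RNA. Duplicate rows of a symbol were reduced to 1. Called means at least 2-fold from the median row. Whole reads were recovered from the RPM steps of the RNA columns (0.107 RPM a read in heart, 0.0621 in TA). Steps of 0.0354 and 0.035 RPM in the RPF columns are approximate, since values are rounded to 0.01 RPM. Ratio intervals are exact conditional binomial (Clopper-Pearson) and shares have Wilson intervals, at 95%. Each of the 4 groups is 1 library, so no test was run.

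Genes were named among members with at least 10 RPM of coding RNA and 1 RPM of 5'UTR RNA. In each tissue these were the 5 highest and 5 lowest of each measure, the 5 longest and the 5 with most RNA. To them came the extremes between tissues and, for each gene list, the most abundant, highest and lowest member. All members with known upstream frames could be named. A few genes that these rules name are not reported here. Members and lists were chosen with earlier results of these data known. Alternatives changed the pseudocount, minimum levels, length threshold, coding length, RNA level, RNA coverage and centring. Upstream ATGs came from GENCODE M21 transcripts of the gene linked to each RefSeq transcript, matched by coding length and nearest 5'UTR length. The ratio code was tested on simulated data. Python 3.11.15, pandas 2.3.3, numpy 2.4.6, scipy 1.17.1 and matplotlib 3.10.9 were used.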

Additional observations from a re-analysis of the deposited data

Results flagged for a closer look

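Mef2c had a coding efficiency of 1.34 in heart and -1.63 in TA, a difference of 2.97 with opposite signs in the tissues. With 1 library per group the difference was not tested.

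Footprints also lay on the 3'UTRs of the members, which no comparison above used. They were 0.711% of the coding and 3'UTR footprints in heart and 1.02% in TA, where 3'UTRs held 29.9% and 45.9% of the RNA.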

How the results depend on the processing

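No paired analysis was possible because each tissue has 1 footprint and 1 RNA library and the labels give no replicate numbers. Among medians and named genes within a tissue only the coding efficiency of Srgap2 in TA, near 0, changed sign, when centred on rows of 100 to 200 nt, and the median 5'UTR efficiency of the members, heart minus TA, went from -0.31 to 0.01 without centring. Pooled footprint shares below RNA shares turned to above in both tissues at 400 nt, at 5 to 20 RPM of coding RNA, at coding lengths of 1000 to 2000 nt and without the 10 rows with most reads, and in heart also at 1000 nt and at 50% RNA coverage. Between the tissues, the counts of higher and lower 5'UTR efficiency turned without centring, those of coding RNA turned at 1000 nt, and those of coding efficiency, 29 and 27, turned without centring, at 1000 nt and at a pseudocount of 1 RPM, where they were 17 and 22. Of 302 alternatives run on the main results, 168 kept their value within its interval or count range and 134 moved. Of the named genes 610 alternatives kept the call. The 2-fold call was lost for Atp2a2, Ppm1l, Siah2, Trib1 and Zfp319 in heart and Kcna1 in TA at a pseudocount of 1 RPM, and for Atp2a2 and Ppm1l in heart when centred on rows of 100 to 200 nt. Depth limits 5'UTRs with a few reads, such as those of Map3k10 and Lcor. The values that moved follow, as medians over the members unless another quantity is named, and the cause of each move was not tested.

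With a pseudocount of 1 RPM the coding efficiency median was -0.41 in TA, and the coding efficiency difference from rows of 100 to 200 nt was -0.45 in TA. The percent at least 2-fold below was 31.3 in heart and 27.5 in TA, and the relative 5'UTR ratio minus that of rows of 100 to 200 nt was 0.83 in heart and 1.22 in TA. The 5'UTR log2 ratio was -0.46 in heart and -0.62 in TA, and the log2 footprint density ratio was -0.31 in heart and -0.34 in TA. The percent with a denser 5'UTR was 42.4 in heart and 42.3 in TA, and the log2 RNA density ratio was -0.94 in heart and -0.71 in TA. The members at least 2-fold apart in coding efficiency numbered 17 higher in heart, and the members at least 2-fold apart in 5'UTR efficiency numbered 14 higher and 36 lower in heart. At 400 nt or more the log2 RNA density ratio was -1.56 in heart and -1.49 in TA, and the pooled 5'UTR share of footprints in percent was 7.31 in heart and 7.69 in TA. Of pooled RNA the 5'UTR percent was 6.39 in heart and 6.80 in TA. At 750 nt or more the coding efficiency median was -0.81 in heart and -0.72 in TA, and the coding efficiency difference from rows of 100 to 200 nt was -0.85 in heart and -0.77 in TA. The percent at least 2-fold below was 43.5 in heart and 37.9 in TA, and the 5'UTR log2 ratio was -0.98 in heart. The log2 RNA density ratio was -1.08 in heart and -1.11 in TA, and the pooled 5'UTR share of footprints in percent was 14.7 in heart and 15.4 in TA. Of pooled RNA the 5'UTR percent was 16 in heart and 18.3 in TA. At 1000 nt or more the coding efficiency median was -0.96 in heart and -0.74 in TA, and the coding efficiency difference from rows of 100 to 200 nt was -1.01 in heart and -0.78 in TA. The percent at least 2-fold below was 48.8 in heart and 44.4 in TA, and the 5'UTR ratio relative to coding was 0.31 in heart. The relative 5'UTR ratio minus that of rows of 100 to 200 nt was 0.95 in heart, and the 5'UTR log2 ratio was -1.20 in heart and -1.23 in TA. The log2 RNA density ratio was -1.17 in heart and -1.05 in TA, and the pooled 5'UTR share of footprints in percent was 19.6 in heart and 19.1 in TA. Of pooled RNA the 5'UTR percent was 19.3 in heart and 23.2 in TA, and the members at least 2-fold apart in coding efficiency numbered 7 higher and 8 lower in heart. The members at least 2-fold apart in 5'UTR efficiency numbered 4 higher and 10 lower in heart, and the members at least 2-fold apart in coding RNA numbered 12 higher and 13 lower in heart. Among 5'UTRs with RNA density of at least 50% of coding the coding efficiency median was -0.73 in heart and -0.70 in TA, and the coding efficiency difference from rows of 100 to 200 nt was -0.81 in heart and -0.88 in TA. The percent at least 2-fold below was 39.5 in heart and 36.1 in TA, and the 5'UTR ratio relative to coding was 0.15 in heart. The relative 5'UTR ratio minus that of rows of 100 to 200 nt was 0.91 in heart and 1.25 in TA, and the 5'UTR log2 ratio was -1.01 in heart and -1.03 in TA. The log2 footprint density ratio was -0.090 in heart and -0.13 in TA, and the percent with a denser 5'UTR was 46.4 in heart and 48.2 in TA. The pooled 5'UTR share of footprints in percent was 26.4 in heart and 21.9 in TA, and of pooled RNA the 5'UTR percent was 23.1 in heart and 25 in TA. At 5 to 20 RPM of coding RNA the coding efficiency difference from rows of 100 to 200 nt was -0.46 in TA, and the 5'UTR log2 ratio was -0.67 in TA. The log2 footprint density ratio was -0.40 in heart and -0.48 in TA, and the percent with a denser 5'UTR was 39.7 in heart and 41 in TA. The log2 RNA density ratio was -1.11 in heart and -1.19 in TA, and the pooled 5'UTR share of footprints in percent was 26 in heart and 20.9 in TA. Of pooled RNA the 5'UTR percent was 20.5 in heart and 19.3 in TA. With at least 5 RPM of coding RNA the log2 RNA density ratio was -1.49 in TA, and the pooled 5'UTR share of footprints in percent was 6.30 in heart and 11.6 in TA. Of pooled RNA the 5'UTR percent was 7.19 in heart and 12.2 in TA. At coding lengths of 1000 to 2000 nt the relative 5'UTR ratio minus that of rows of 100 to 200 nt was 1.32 in heart, and the log2 footprint density ratio was -0.45 in heart. The pooled 5'UTR share of footprints in percent was 23.6 in heart and 16.5 in TA, and of pooled RNA the 5'UTR percent was 15.7 in heart and 16.2 in TA. With a 5'UTR RNA minimum of 0.25 RPM the relative 5'UTR ratio minus that of rows of 100 to 200 nt was 0.80 in heart and 1.24 in TA, and the 5'UTR log2 ratio was -0.48 in heart and -0.60 in TA. With a 5'UTR RNA minimum of 5 RPM the relative 5'UTR ratio minus that of rows of 100 to 200 nt was 1.79 in heart and 2.37 in TA, and the 5'UTR log2 ratio was -0.93 in heart and -1.13 in TA. The log2 footprint density ratio was -0.45 in heart and -0.94 in TA. With rows kept by expected 5'UTR RNA, chosen after seeing the data, the relative 5'UTR ratio minus that of rows of 100 to 200 nt was 0.31 in heart and 0.78 in TA, and the 5'UTR log2 ratio was -0.41 in heart and -0.47 in TA. The log2 footprint density ratio was -1.10 in TA, and the percent with a denser 5'UTR was 30.1 in heart and 29.4 in TA. Among rows listed in both tables the pooled 5'UTR share of footprints in percent was 6.30 in heart and 11.7 in TA, and of pooled RNA the 5'UTR percent was 7.13 in heart. Without the 10 rows with most reads the pooled 5'UTR share of footprints in percent was 11.6 in heart and 10.5 in TA, and of pooled RNA the 5'UTR percent was 9.86 in heart and 10.3 in TA. With at least 5 RPM in both tissues the members at least 2-fold apart in coding efficiency numbered 17 higher and 16 lower in heart, and the members at least 2-fold apart in coding RNA numbered 56 higher and 53 lower in heart. Without centring the members at least 2-fold apart in coding efficiency numbered 16 higher and 50 lower in heart, and the members at least 2-fold apart in 5'UTR efficiency numbered 52 higher and 33 lower in heart. The members at least 2-fold apart in coding RNA numbered 268 higher and 23 lower in heart.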
